A study of Mus musculus with 8 samples.

Results

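The transcriptome of dendritic cells (DCs) from the spleens of untreated mice was described from 4 arrays of a series of 8. The description covers which genes gave the highest signal, how the genes of the DC subsets and of other spleen cells ranked, and which genes differed from array to array. WT DCs were sorted from the spleens of Lkb1f/f mice and were hybridised to 3 arrays (WT 1, WT 2 and WT 3). These mice carry loxP-flanked Lkb1 alleles and no Cre. Control DCs were sorted from the spleens of C57BL/6 mice and were hybridised to 1 array. A figure legend of the paper names Lkb1f/f mice for the array of LPS-treated mice and gives no genotype for the Control mice. Whether the Control mice carried the loxP-flanked alleles is therefore uncertain. All mice were 8 weeks old on a C57BL/6 background and were not given LPS, and the sources used here do not say how many mice were pooled for an array. The methods for the arrays state no gate, while for cultures of the same study splenic DCs were gated as CD11c+MHCII+. The other 4 arrays of the series hold Cd11cCreLkb1f/f DCs and DCs of LPS-treated mice.

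DCs take up antigen, cut it into peptides and display these on major histocompatibility complex (MHC) molecules to T cells. In the mouse spleen, conventional DCs fall into a CD8+ lineage (cDC1), which depends on the transcription factors Batf3 and Irf8 and presents antigen of dead cells to CD8+ T cells, and a CD11b+ lineage (cDC2), part of which needs Notch2 signals and carries CD4 and Esam. Plasmacytoid DCs are a separate lineage known for type I interferon. The integrin Itgax (CD11c) and MHC class II, by which DCs are usually gated, are also found on some macrophages and B cells.

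Each array was the Affymetrix Mouse Gene 2.0 ST, on which a probe set is a group of probes read as 1 value. A probe set entered the ranking if it was annotated with 1 gene symbol and had a value on all 4 arrays, which left 23521 of 41345 probe sets, for 22180 genes. The deposited log2 values had different midpoints, with medians over the ranked probe sets of 4.89 on WT 1, 4.32 on WT 2 and 3.69 on WT 3, and 4.44 on Control. Signal was therefore compared within an array, as a rank (1 for the highest) or a percentile (100 for the highest). A rank orders hybridisation signal and not copies of RNA, since probes differ in how they respond. A gene with several probe sets was represented by the one with the highest mean rank, and 561 of the 1082 such genes had probe sets over 20 percentile points apart. Spearman's rho between arrays, across probe sets that are not independent replicates, lay between 0.948 and 0.962. No ranked probe set had the same value on any pair of the 4 arrays.

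Olfactory, vomeronasal and taste receptor genes, which are used in sensory cells, served as a measured background. The 95th percentile of their 1443 probe sets lay at log2 values of 4.45 on WT 1, 3.92 on WT 2 and 3.16 on WT 3, and 4.27 on Control. Signal above this level on all 4 arrays was read for 11491 ranked probe sets (48.9%), or 11047 genes (49.8%). The level is not free of exceptions. A probe set of the vomeronasal receptor gene Vmn1r233 ranked 532, 43 and 47 in WT DCs and 64 in Control DCs, whereas the gene's other probe set lay between the percentiles 6.99 and 24.0 on the 4 arrays. Of the sensory receptor probe sets, 33 were above the level on all 4 arrays.

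The labels call the cells DCs, and the genes that define DCs ranked high on every array. The deposited log2 values of Itgax were 10.46, 10.35 and 8.48 in WT DCs and 10.31 in Control DCs, at the percentiles 98.8, 98.7, 97.4 and 99.2. Flt3, the receptor for the growth factor on which DCs depend, stood at the percentiles 98.7, 98.0 and 96.9 in WT DCs and 98.7 in Control DCs. Zbtb46, a transcription factor of conventional DCs, stood lower, at 83.1, 85.1 and 75.2 in WT DCs and 85.4 in Control DCs. The invariant chain gene Cd74 had only a probe set shared with Mir5107, so it was not ranked. All 3 ranked label markers were above the sensory receptor level on all 4 arrays. Stk11, the gene that encodes Lkb1, was above it too, at the percentiles 73.6, 78.2 and 78.5 in WT DCs and 86.3 in Control DCs.

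The arrays were not alike in every respect, and the differences bear on the results that follow. On WT 2, the RNA of the inactive X chromosome, Xist, was high and 3 genes of the Y chromosome were low, and the other 3 arrays showed the reverse. On WT 3, genes of neutrophils, B cells and T cells stood above their place on the other arrays. On WT 1, small nucleolar RNAs and macrophage genes stood below theirs. The values are given with the genes concerned. The labels do not give the sex of the mice.

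The highest signal was that of RNAs which every cell makes and of antigen presentation genes. Of the 30 genes with the highest mean rank, 9 are encoded by the mitochondrial genome and 5 encode ribosomal proteins. All 30 were among the first 100 probe sets on each of the 4 arrays, which their choice by mean rank over these arrays makes likely. Rn7sk, a small nuclear RNA that restrains transcript elongation, ranked 3, 1 and 1 in WT DCs and 1 in Control DCs. Its log2 values were 12.36, 13.22 and 11.97 in WT DCs and 13.02 in Control DCs. The arrays overlapped in rank for this gene, and its mean rank over the 4 arrays was 1.5 ± 1.0 (SD, n = 4).

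Presentation genes followed directly. B2m, the light chain of MHC class I, had a mean rank of 3.25 ± 1.71, and ranked 1, 4 and 3 in WT DCs and 5 in Control DCs (SD, n = 4). H2-Ab1, the beta chain of the class II molecule I-A, ranked 4, 8 and 9 in WT DCs and 4 in Control DCs. Its alpha chain gene H2-Aa ranked 17, 30 and 32 in WT DCs and 15 in Control DCs. For both class II chains the Control array equalled or passed the best of the WT arrays, by a few places. Between these genes stood the translation factors Eif4a1 (mean rank 3.25 ± 1.89) and Eef1a1 (14.0 ± 1.15) and the mitochondrial subunit genes ND4, COX1, CYTB, ND5 and ND1, with mean ranks between 3.25 and 11.25.

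Lower in the first 30 were genes tied to myeloid cells and lysosomes. Fcer1g, the signalling chain shared by Fc receptors and several lectins, ranked 37, 31 and 30 in WT DCs and 30 in Control DCs. Gm2a, a lysosomal activator of ganglioside breakdown, ranked 14, 29 and 59 in WT DCs and 27 in Control DCs. Psap, the precursor of the saposins of the lysosome, had a mean rank of 35.75 ± 10.1. The ferritin heavy chain gene Fth1 ranked 27, 20 and 23 in WT DCs and 25 in Control DCs, a narrow band. Zfp36, which encodes a protein that speeds the decay of cytokine mRNA, was spread more widely, with ranks of 16, 28 and 72 in WT DCs and 20 in Control DCs. Rgs2, a brake on G protein signalling, ranked 20, 27 and 48 in WT DCs and 53 in Control DCs.

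**Figure D1:**
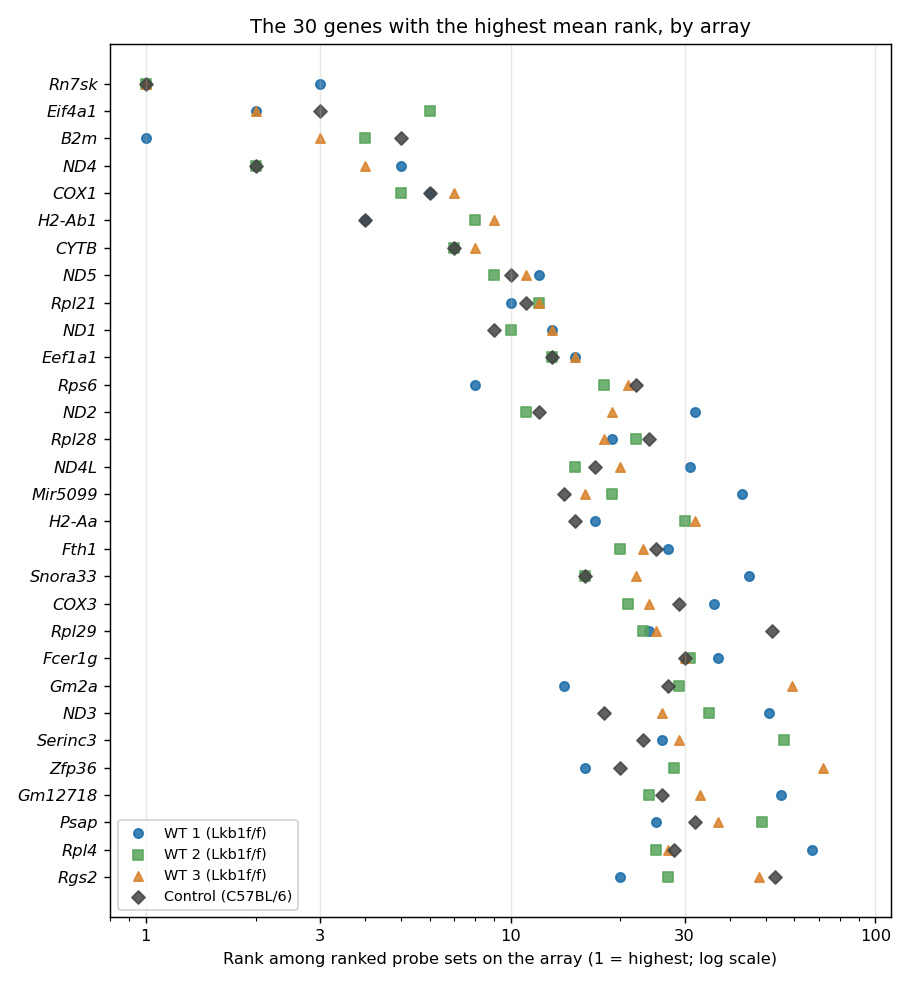
Rank on each array (1 is the highest of 23521 probe sets, log axis) of the 30 genes with the highest mean rank, with 1 symbol per array for the 3 WT (Lkb1f/f) arrays and the Control (C57BL/6) array. Every symbol lies within the first 100 ranks, and Rn7sk lies at rank 1 on 3 arrays and 3 on WT 1.

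The genes behind peptide display on MHC class II are switched on together by Ciita, a coactivator that does not bind DNA itself and joins factors already placed on their promoters, among them the CCAAT-binding factor NF-Y. Promoter sequence of 2 of the 3 chains H2-Aa, H2-Ab1 and H2-Eb1 was in the RefSeq table (GRCm38.p6). The stretches run from 250 bases before the start of the gene to 50 bases after it, 5′ to 3′ on the strand of the gene. They are shown because these genes carried some of the highest signal on every array, and capitals mark CCAAT or its reverse complement ATTGG.
H2-Aa promoter, chr17:34287774-34288073, minus strand: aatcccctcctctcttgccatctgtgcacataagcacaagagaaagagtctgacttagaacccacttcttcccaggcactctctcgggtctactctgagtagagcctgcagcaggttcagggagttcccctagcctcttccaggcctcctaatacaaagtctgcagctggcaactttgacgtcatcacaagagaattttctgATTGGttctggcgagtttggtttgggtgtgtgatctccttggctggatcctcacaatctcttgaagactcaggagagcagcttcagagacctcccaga
H2-Eb1 promoter, chr17:34305617-34305916, plus strand: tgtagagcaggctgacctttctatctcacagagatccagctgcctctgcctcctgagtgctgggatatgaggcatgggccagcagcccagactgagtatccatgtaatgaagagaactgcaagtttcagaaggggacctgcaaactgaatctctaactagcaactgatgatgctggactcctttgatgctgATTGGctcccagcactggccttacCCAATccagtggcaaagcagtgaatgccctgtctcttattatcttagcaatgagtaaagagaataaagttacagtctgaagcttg

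H2-Aa holds 1 match, which begins 48 bases before the start, and H2-Eb1 holds 2, which begin 59 and 35 bases before it. At least 1 match was found in 37.4% of all 32851 promoters of the table and at least 2 in 11.7%. A match describes letters and not a bound site.

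Of the 16 genes listed for MHC class II, 15 were ranked, and all 15 were above the sensory receptor level on all 4 arrays, with a median percentile of 98.1. None spanned 20 points, against 10.4% of all genes. However, 12 of the 15 had a mean percentile of at least 90, which leaves little room for a wide span. For this list and other high lists, the absence of wide spans therefore does not measure steadiness. The remaining chain, H2-Eb1, had log2 values of 11.87, 11.77 and 10.55 in WT DCs and 11.57 in Control DCs, at ranks 28, 55, 54 and 35. Ciita stood at the percentiles 97.9, 98.2 and 97.8 in WT DCs and 98.4 in Control DCs. The exchange factor chain H2-DMa, which helps load peptides, stood at 99.6, 98.0 and 98.1 in WT DCs and 98.6 in Control DCs. Its partner H2-DMb1 had the widest range among the class II chains, with 81.2, 67.9 and 73.5 in WT DCs and 70.7 in Control DCs. H2-DMb2, which encodes the same kind of chain, read higher at 98.6, 93.7 and 94.7 in WT DCs and 96.3 in Control DCs. Near-identical copies of a gene can share signal, so the split between H2-DMb1 and H2-DMb2 is uncertain. The MHC class II enzymes Ctss, a protease that trims the invariant chain, and Ifi30, a reductase of the lysosome, had mean ranks of 101 ± 67.0 and 60.5 ± 26.2 (SD, n = 4).

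Class I genes were nearly as high. All 14 ranked genes of the 15 listed were above the sensory receptor level, with a median percentile of 96.3. H2-K1, a classical heavy chain, stood at 99.5, 98.6 and 98.8 in WT DCs and 99.2 in Control DCs. The peptide transporter genes lay apart from each other, with mean percentiles of 96.6 ± 1.40 for Tap1 and 77.9 ± 1.45 for Tap2. Psmb8, a subunit of the immunoproteasome, was lower on WT 1 than elsewhere, at 91.2, 97.9 and 98.1 in WT DCs and 97.1 in Control DCs.

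The core list of conventional DC genes held 12 genes, all ranked and all above the sensory receptor level on all 4 arrays. Its median percentile was 98.3, none of its genes spanned 20 points, and 11 of the 12 had a mean percentile of at least 90. Cst3, a protease inhibitor abundant in DCs, stood at ranks 99, 153 and 165 in WT DCs and 90 in Control DCs. Id2, a factor required for cDC1, ranked 66, 189 and 136 in WT DCs and 130 in Control DCs. Kmo, an enzyme of tryptophan breakdown, was spread more, with percentiles of 98.9, 97.1 and 95 in WT DCs and 98.3 in Control DCs. In this list WT 3 was the lowest array for 9 of 12 genes, against 5929 of all 22180 genes.

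Genes of the CD8+ cDC1 lineage had a median percentile of 92.3 over the 15 ranked of 16. All 15 were above the sensory receptor level on all 4 arrays and none spanned 20 points. The highest were Naaa, an amidase, and Wdfy4, which is needed for cross-presentation, with mean ranks of 176.5 ± 46.2 and 197 ± 48.3 (SD, n = 4). Irf8 stood at the percentiles 97.9, 97.3 and 97.3 in WT DCs and 98.0 in Control DCs, with the groups overlapping. The chemokine receptor gene Xcr1 stood at 92.0, 89.7 and 84.8 in WT DCs and 87.6 in Control DCs. Batf3 followed the same order over the arrays, at 88.9, 86.5 and 82.2 in WT DCs and 85.2 in Control DCs. Itgae (CD103), an integrin chain that binds E-cadherin, was the lowest of the list, at 65.5, 62.1 and 62.5 in WT DCs and 57.2 in Control DCs. Clec9a, the receptor for dead cells, had only a probe set shared with Clec1b.

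The cDC2 genes split in the same way. For the ESAM-high list, all 12 genes were above the sensory receptor level, with a median percentile of 94.1. Sirpa, an inhibitory receptor that marks the lineage, had a mean percentile of 98.4 ± 0.621, and Cd4 one of 98.1 ± 0.411 (SD, n = 4). Notch2 was the steadiest, at 97.8, 97.6 and 97.6 in WT DCs and 97.7 in Control DCs. Esam, the adhesion molecule after which the subset is named, was both lower and less steady, at 86.3, 69.3 and 58 in WT DCs and 69.6 in Control DCs. It was the only gene of this list that spanned 20 points. Among 10 ESAM-low genes the median percentile was 87.9, and 8 were above the level on all 4 arrays. Cd209a, a C-type lectin, stood at 99.5, 98.0 and 97.5 in WT DCs and 98.4 in Control DCs. The lectin gene Mgl2 read 47.8, 33.3 and 48.1 in WT DCs and 51.3 in Control DCs, within the range of sensory receptors on at least 1 array. Clec10a, its close relative, was like it at 52.2, 49.6 and 44.3 in WT DCs and 40.1 in Control DCs. These closely related genes can share probes, so their separate values are uncertain.

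Plasmacytoid DC genes were lower and less even. Their median percentile was 76.1 over the 13 ranked of 14, 12 were above the sensory receptor level on all 4 arrays, and 4 spanned 20 points, against 10.4% of all genes. Siglech, a lectin of these cells, stood at 69.9, 79.8 and 88.2 in WT DCs and 79.1 in Control DCs. Bst2, which is also induced by interferon, read 45.2 on WT 1, 81.3 on WT 2 and 89.6 on WT 3, and 88.4 on Control. Klk1, a kallikrein, covered the widest range of the list, at 34, 72.9 and 93.8 in WT DCs and 58.1 in Control DCs. Both were lowest on WT 1. In bulk samples such as these, fewer cells of a type and less RNA per cell cannot be told apart.

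Of the 14 ranked genes listed for mature DCs, 12 were above the sensory receptor level on all 4 arrays, and the median percentile was 91.7. Ccr7, the receptor that guides DCs to T cell zones, ranked 53, 242 and 366 in WT DCs and 188 in Control DCs. The T cell costimulators Cd80 and Cd86 had mean percentiles of 98.6 ± 0.293 and 97.6 ± 0.795 (SD, n = 4). The chemokine gene Ccl5 was higher still, with ranks of 52, 76 and 114 in WT DCs and 38 in Control DCs. Ccl22, which draws Ccr4-bearing T cells, was highest on Control at 94.5, against 84.6, 75.2 and 75.8 in WT DCs. Ccl17, a ligand of the same receptor, was near the background at 40.8, 45.0 and 46.5 in WT DCs and 51.5 in Control DCs. Tnfsf4 (OX40L), a costimulator of T cells, was also near it, at 40.7, 57.2 and 28.2 in WT DCs and 54.5 in Control DCs. All 3 log2 values of Tnfsf4 in WT DCs (4.39, 4.85 and 2.60) and that in Control DCs (4.66) lay within 1 log2 unit of the sensory receptor level of their array.

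Genes of uptake and innate sensing were mostly high. Of 24 genes, 23 were above the sensory receptor level on all 4 arrays, with a median percentile of 92.3. Tyrobp, an adaptor used by many myeloid receptors, had a mean percentile of 98.9 ± 0.389. The beta-glucan receptor gene Clec7a stood at 98.5, 97.9 and 97.0 in WT DCs and 98.2 in Control DCs. Among Toll-like receptors, Tlr13, a sensor of bacterial ribosomal RNA, read 93.7, 93.5 and 94.0 in WT DCs and 95 in Control DCs. Tlr4, the LPS receptor, was lower, at 54.1, 65.0 and 63.6 in WT DCs and 70.9 in Control DCs. Fc receptor genes were lowest on WT 1, as with Fcgr1 at 73.4, 90.1 and 92.0 in WT DCs and 89.5 in Control DCs. The one gene not above the level throughout, the lectin gene Clec4d, was high on WT 3 alone, at 39.6, 47.0 and 76.7 in WT DCs and 44.9 in Control DCs.

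The actin machinery that shapes DC protrusions was near the top. The median percentile of the 20 ranked cytoskeleton genes was 98.97, and 17 were above the sensory receptor level on all 4 arrays. Lcp1, an actin bundler of leukocytes, had a mean rank of 45.0 ± 11, and Arpc2, a subunit of the actin nucleator Arp2/3, one of 64.5 ± 7.51 (SD, n = 4). Tuba1b, an alpha tubulin gene, stood apart on Control, where its percentile was 22.4, against 79.6, 78.3 and 74.8 in WT DCs. Near-identical tubulin genes share sequence, so a value for 1 of them is uncertain. Glycolysis genes were moderate, with a median percentile of 87.6 and all 12 ranked genes above the level. Gapdh ranked 58, 48 and 35 in WT DCs and 44 in Control DCs, whereas Ldha, which reduces pyruvate to lactate, read only 70.5, 53.7 and 67.4 in WT DCs and 60.9 in Control DCs.

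Immediate-early genes, which respond within minutes to stimuli and also to tissue dissociation, were among the highest lists. All 22 were above the sensory receptor level on all 4 arrays, with a median percentile of 99.2, and 20 had a mean percentile of at least 90. Jun ranked 33, 26 and 100 in WT DCs and 63 in Control DCs. Nr4a1, an orphan nuclear receptor, ranked 23, 17 and 154 in WT DCs and 33 in Control DCs. WT 3 was the lowest array for 13 of the 22 genes, and Control for 8, against 5929 and 5357 of all 22180 genes. Egr3 had the widest span of the list, at 90.6, 93.9 and 82.5 in WT DCs and 79.8 in Control DCs. Such genes were high on all 4 arrays, and the part of cell handling in this was not tested.

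Interferon-stimulated genes had a median percentile of 82.2 over 21 ranked genes, of which 19 were above the sensory receptor level. Usp18, a brake on interferon signalling, led with 97.4, 93.6 and 90.8 in WT DCs and 94.4 in Control DCs. Isg15, a ubiquitin-like protein, was low on WT 1 at 40.2, against 84.8 on WT 2, 81.2 on WT 3 and 75.5 on Control. Ifit2 was the lowest of the list, at 54.9, 47.6 and 51.3 in WT DCs and 42.9 in Control DCs, and lay below the sensory receptor level on Control only. Cell division genes had a median percentile of 81.6, with 18 of 19 above the level, and Control was the lowest array for 13. Over all 22180 genes, Control was the lowest array for 5357. Mki67, a nuclear protein of cycling cells, stood at 94.4, 98.0 and 97.4 in WT DCs and 96.7 in Control DCs.

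Markers of other spleen cells were measured to see what else the sorted cells held. The macrophage and monocyte list was as high as the DC lists, with a median percentile of 96.5 and all 20 genes above the sensory receptor level on all 4 arrays. Some of these genes are also used by DCs, and Fcgr1, Ccr2 and Ly6c2 stand in a further list here. Markers that define red pulp macrophages were among the high ones. Vcam1, an adhesion molecule, ranked 338, 143 and 94 in WT DCs and 129 in Control DCs, and Spic, the transcription factor of these cells, read 94.4, 97.3 and 97.9 in WT DCs and 98.8 in Control DCs. The complement gene C1qa stood at 87.1, 97.3 and 97.8 in WT DCs and 98.3 in Control DCs. WT 1 was the lowest array for 17 of the 20 genes, against 5778 of all 22180 genes. Marco, a scavenger receptor of marginal zone macrophages, was the most spread, at 52.9, 79.9 and 72.1 in WT DCs and 75.1 in Control DCs.

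B cell genes were clearly present, and most so on WT 3. Over the 13 ranked genes, the list median was 81.7 on WT 1, 75.3 on WT 2 and 97.4 on WT 3, and 76.6 on Control. WT 3 was the highest array for all 13, against 4653 of all 22180 genes. Of the 13, 12 were above the sensory receptor level on all 4 arrays. Cd79a, a chain of the B cell receptor, had log2 values of 9.41, 8.22 and 9.86 in WT DCs and 7.62 in Control DCs, at the percentiles 96.1, 91.1, 99.3 and 90.7. Ighm, the mu heavy chain, ranked 110, 130 and 14 in WT DCs and 127 in Control DCs. Vpreb3, which is made by developing B cells, reached 77.5 on WT 3 and lay at 35.8 on WT 1, 37.8 on WT 2 and 29.0 on Control. All 21 ranked immunoglobulin genes were likewise highest on WT 3, with medians of 91.5, 77.8 and 98.7 in WT DCs and 66.6 in Control DCs.

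T and NK cell genes were lower. The T cell list had medians of 65.7, 55.9 and 79.9 in WT DCs and 52.5 in Control DCs over the 10 ranked of 16 listed genes. Those not ranked include the T cell receptor genes Trac, Trbc1 and Trbc2. Of the 10, 9 spanned 20 points, against 10.4% of all genes. Cd3e, a chain of the T cell receptor complex, stood at 75.5, 65.4 and 89.6 in WT DCs and 66.9 in Control DCs. NK cell genes had medians of 57.4, 73.3 and 81.9 in WT DCs and 76.9 in Control DCs, so that here WT 1 was the low array. Gzma, a protease of cytotoxic granules, read 12.7 on WT 1, against 79.1 on WT 2, 93.4 on WT 3 and 76.8 on Control.

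Ranked markers of basophils, erythroid cells and stroma were, by list median, close to the middle of all genes or below it. Only 6 of the 12 erythroid genes were ranked, without the globin genes. Among all probe sets, 1 shared by Hba-a1 and Hba-a2 stood at 98.2, 93.1 and 99.1 in WT DCs and 97.5 in Control DCs. Another stood at 66.2, 80.0 and 73.7 in WT DCs and 73.8 in Control DCs. Median percentiles were 35.2 for the basophil and mast cell list, 49.9 for the erythroid list and 51.2 for the stromal and endothelial list, against 49.95 over all genes. Emcn, a marker of vessel lining, lay between 10.6 and 15.5 on the 4 arrays, in contrast to Pecam1, which leukocytes also carry, at 91.9, 93.1 and 94.7 in WT DCs and 94.2 in Control DCs. Platelet genes were highest on WT 1 and WT 3, and WT 2 was the lowest array for all 6, against 5116 of all 22180 genes. Ppbp, a platelet chemokine, stood at 95.4, 46.3 and 84.9 in WT DCs and 48.2 in Control DCs.

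**Figure D2:**
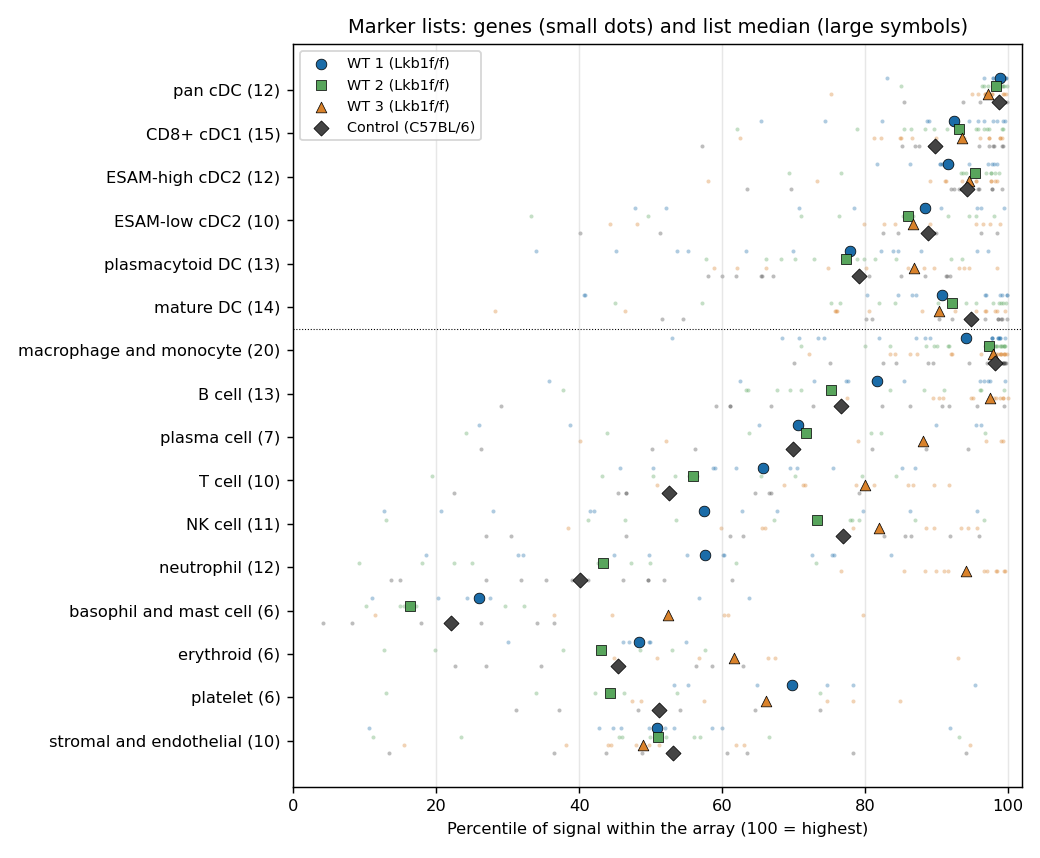
Percentile of signal within the array (100 is the highest) for the genes of 16 marker lists, with the number of ranked genes in brackets. Small dots are genes and large symbols are list medians, in the colours of the 3 WT (Lkb1f/f) arrays and the Control (C57BL/6) array. DC lists stand above the dotted line, and the medians of the neutrophil list are 57.6, 43.4 and 94.2 in WT DCs and 40.2 in Control DCs.

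Neutrophil genes set WT 3 apart from the other arrays. All 12 were highest on WT 3, against 4653 of all 22180 genes. All 12 also spanned at least 20 points (10.4% of all genes did). Of the 12, 10 stood at least 20 points above each other array, the most of any of the lists of cell markers. S100a8, a chain of the calcium-binding protein calprotectin, had log2 values of 6.89, 3.98 and 10.16 in WT DCs and 2.73 in Control DCs. Its percentiles were 75.3, 43.4 and 99.6 in WT DCs and 13.7 in Control DCs, so that no pair of arrays lay close. Camp, the precursor of the cathelicidin peptide, read 18.6, 18 and 96.7 in WT DCs and 15.0 in Control DCs. Ngp, a protein of the secondary granules, read 60.1, 47.2 and 99.4 in WT DCs and 41.3 in Control DCs. The surface marker Ly6g, by which neutrophils are gated, was the lowest of the list on WT 2 and stood at 32.2, 9.16 and 76.7 in WT DCs and 31.9 in Control DCs. The primary granule proteases and enzymes followed the same pattern, as Elane did with 55.1, 49.9 and 91.6 in WT DCs and 49.6 in Control DCs.

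The C/EBP family of transcription factors acts in granulocyte development and binds as pairs to sequences of the type TTGCNNAA. Promoters of the 5 neutrophil granule or calprotectin genes S100a8, S100a9, Camp, Ngp and Ltf were all in the RefSeq table. The 3 that hold a match to TTGCNNAA on either strand are shown, with the match in capitals, because these genes stood high together on WT 3. The motif was chosen after their values were seen.
S100a9 promoter, chr3:90695672-90695971, minus strand: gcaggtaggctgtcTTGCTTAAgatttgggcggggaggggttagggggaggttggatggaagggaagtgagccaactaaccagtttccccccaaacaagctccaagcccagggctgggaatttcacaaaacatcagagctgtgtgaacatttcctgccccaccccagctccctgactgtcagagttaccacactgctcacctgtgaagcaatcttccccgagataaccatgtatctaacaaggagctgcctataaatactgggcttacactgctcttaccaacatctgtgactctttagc
Ngp promoter, chr9:110419558-110419857, plus strand: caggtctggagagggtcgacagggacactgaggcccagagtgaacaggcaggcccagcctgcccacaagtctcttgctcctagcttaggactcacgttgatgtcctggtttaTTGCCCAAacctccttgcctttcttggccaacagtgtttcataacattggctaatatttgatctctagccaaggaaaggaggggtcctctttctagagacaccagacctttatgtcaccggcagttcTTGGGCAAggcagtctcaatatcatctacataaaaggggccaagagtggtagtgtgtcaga
Ltf promoter, chr9:111019042-111019341, plus strand: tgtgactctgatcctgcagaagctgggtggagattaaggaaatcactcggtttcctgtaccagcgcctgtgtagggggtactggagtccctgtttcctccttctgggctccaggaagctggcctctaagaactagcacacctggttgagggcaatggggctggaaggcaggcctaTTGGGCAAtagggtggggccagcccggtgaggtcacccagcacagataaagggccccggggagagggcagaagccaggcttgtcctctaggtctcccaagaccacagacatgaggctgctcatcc

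Ngp holds 2 matches and S100a9 and Ltf hold 1 each. Of all 32851 promoters, 10.8% hold at least 1. In the same window of S100a8 and Camp these letters were not found, which says nothing of the factor.

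To see which further genes stood apart, a probe set was counted for an array if its percentile there was at least 20 points above, or below, each of the other 3, and if the higher side lay above the sensory receptor level. On WT 3, 156 probe sets (0.663%) stood higher and 14 (0.0595%) lower. For WT 2 the counts were 14 higher (0.0595%) and 13 lower (0.0553%), and for WT 1 they were 30 higher (0.128%) and 59 lower (0.251%). Control had 28 higher (0.119%) and 107 lower (0.455%). The 107 include probe sets of genes whose highest probe set was not low on Control. For Rhoa, 2 of 3 probe sets were among them, while the highest stood at 99.7, 99.1 and 99.3 in WT DCs and 99.4 in Control DCs. Over all ranked probe sets, 2640 (11.2%) spanned at least 20 points from the lowest array to the highest, and the median span was 9.34 points. The arrays thus differed both in how many probe sets stood apart and in which direction.

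**Figure D3:**
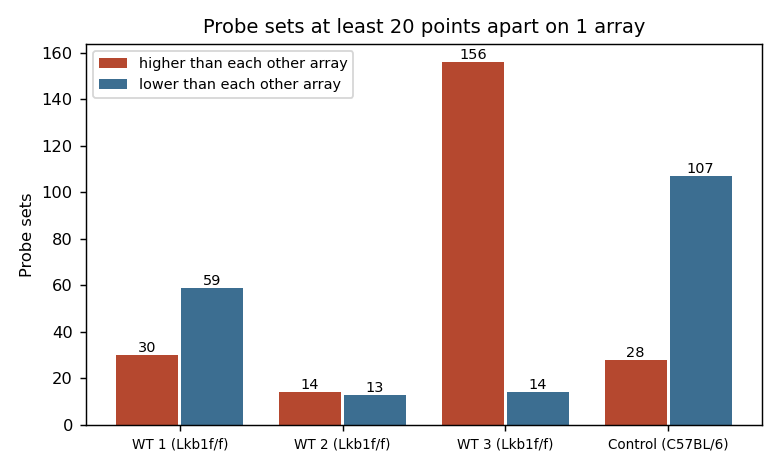
Number of ranked probe sets at least 20 percentile points higher or lower on 1 array than on each of the other 3. The tallest bars are the 156 probe sets higher on WT 3 (Lkb1f/f) and the 107 lower on Control (C57BL/6).

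Beyond the neutrophil list, WT 3 was also high for further myeloid genes and for the large gene Syne1. Lcn2, an iron-scavenging protein of neutrophil granules, ranked 101 on WT 3, at log2 10.21, against log2 values of 6.20 on WT 1, 4.80 on WT 2 and 4.77 on Control. Chil3, a chitinase-like protein of myeloid cells, reached 99.5 on WT 3 and lay at 48.3 on WT 1, 46.6 on WT 2 and 34.4 on Control. Prg2, the major basic protein of eosinophils, read 86.8 on WT 3, and 41.9 on WT 1, 36.0 on WT 2 and 31.2 on Control. Syne1, a giant protein that ties the nucleus to the cytoskeleton, accounted for 33 of the 156 probe sets. Since 59 probe sets of the ranking belong to this gene, these are repeated readings of 1 gene and not separate findings. Counted by gene, 123 genes stood higher on WT 3.

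The sex-linked genes gave the clearest division, and they set WT 2 apart. Xist had log2 values of 3.30 on WT 1, 10.68 on WT 2 and 1.83 on WT 3, and 3.11 on Control. Its percentiles were 20.7, 99.1 and 12.5 in WT DCs and 21.4 in Control DCs. The translation factor gene Eif2s3y, on the Y chromosome, showed the opposite at 87.6, 18 and 91.7 in WT DCs and 87.5 in Control DCs. Kdm5d, a Y-linked histone demethylase gene, stood at 81.5, 7.96 and 78.2 in WT DCs and 74.3 in Control DCs. Uty, a further Y-linked gene, stood at 86.7, 8.00 and 79.5 in WT DCs and 84.2 in Control DCs. On each of these 4 genes WT 2 stood alone, and its 3 Y-linked values lay below the sensory receptor level of the array. Ddx3y was not analysed here, since no probe set carried it as its 1 symbol.

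Small RNAs set WT 1 apart. Over 73 small nucleolar RNA genes, most of which guide the modification of ribosomal RNA, the median percentile was 81.0 on WT 1, 90.7 on WT 2 and 92.0 on WT 3, and 90.2 on Control. WT 1 was the lowest array for 47 of the 73, and 11 stood at least 20 points below each other array there. Over all 22180 genes, WT 1 was the lowest array for 5778. Snord1b had log2 values of 3.56, 9.47 and 7.98 in WT DCs and 8.84 in Control DCs, at the percentiles 24.9, 97.1, 95.5 and 96.9. Snord61 stood at 44.1, 98.2 and 98.7 in WT DCs and 94.9 in Control DCs. A longer member, Snora33, was near the top on every array, at ranks 45, 16 and 22 in WT DCs and 16 in Control DCs. The Y RNA gene Rny1 was low on WT 1 as well, at 66.8, 95.6 and 91.2 in WT DCs and 93.5 in Control DCs, whereas Rny3 was high there, at 93.5, 72.1 and 60.3 in WT DCs and 64.1 in Control DCs. RNA quality and the recovery of short RNA were not given in the sources used here, and their part in these values was not tested.

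Histone genes were high on WT 1 and low on Control. Of 31 ranked histone genes, 17 were highest on WT 1 and 23 lowest on Control, against 6077 and 5357 of all 22180 genes. Their medians were 66.2, 50.1 and 54.7 in WT DCs and 36.5 in Control DCs. H2ac15, a histone H2A gene, stood at 87.4 on WT 1, 12.8 on WT 2, 11.6 on WT 3 and 5.59 on Control. H1f1, a linker histone gene, was instead alike in WT DCs at 54.7, 50.1 and 54.7 and lay at 9.84 in Control DCs. Histone genes of a cluster resemble each other closely, so signal can be shared between them.

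**Figure D4:**
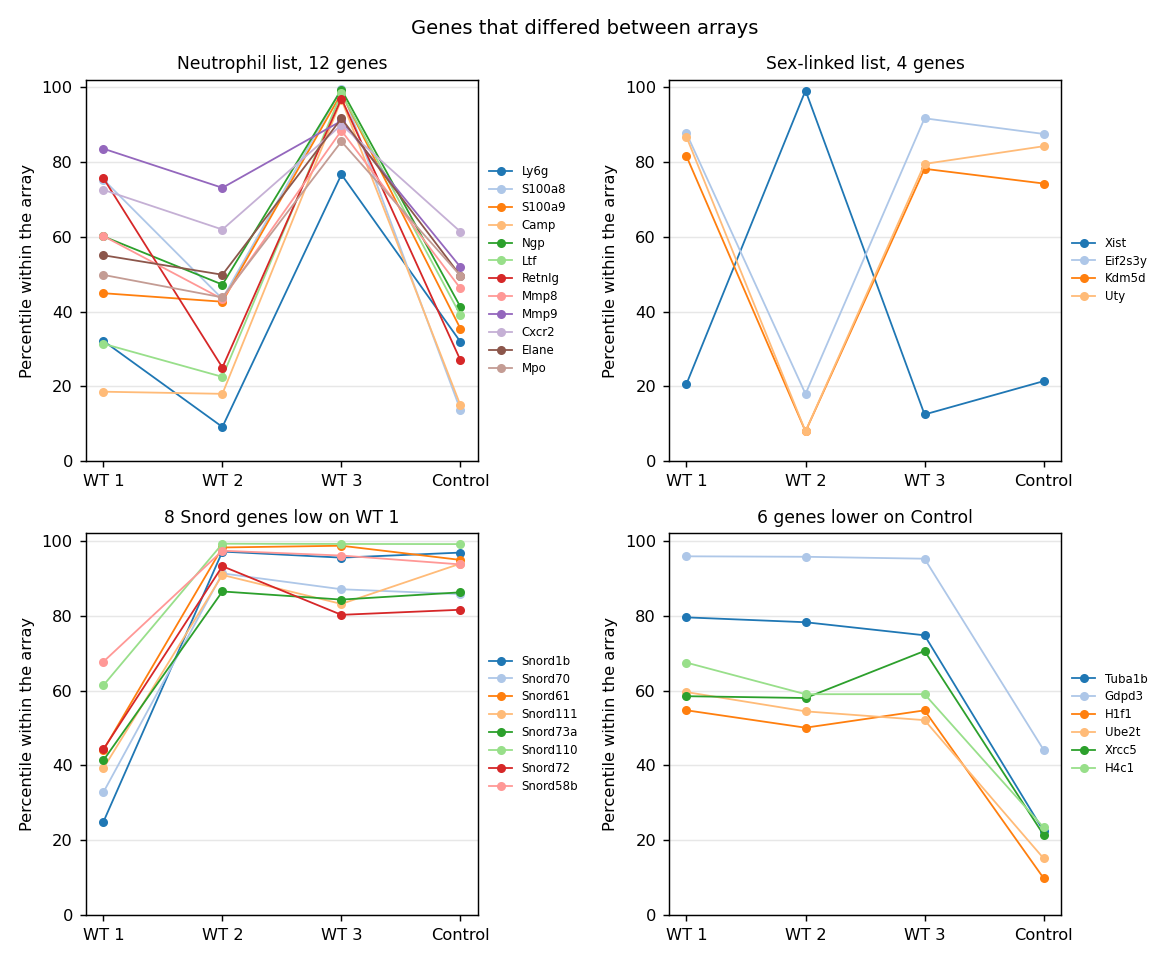
Percentile of signal within the array (100 is the highest) on the 3 WT (Lkb1f/f) arrays and the Control (C57BL/6) array, with 1 line per gene. The panels show the 12 neutrophil genes, high on WT 3, the 4 sex-linked genes, reversed on WT 2, 8 Snord genes, low on WT 1, and 6 genes lower on Control, among them Gdpd3 at 95.9, 95.8 and 95.2 in WT DCs and 44.1 in Control DCs.

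MicroRNA genes were mostly at the background. Their 478 ranked genes had a median percentile of 20.3, and 99 were above the sensory receptor level on all 4 arrays. The array reads RNA that overlaps a precursor and does not separate the mature form from it or from a host transcript. Only 7 had a mean percentile of at least 90, led by Mir5099, which ranked 43, 19 and 16 in WT DCs and 14 in Control DCs. Mir692-1 stood at 99.5, 99.5 and 99.3 in WT DCs and 99.4 in Control DCs. Mir142, the microRNA gene best known for its use throughout blood cells, stood at 89.9, 92.0 and 82.8 in WT DCs and 87.4 in Control DCs. Mir5099 is named only. Mature sequences of Mir692-1, of Mir142 and of 2 further high-ranking genes, Mir1938 and Mir5125, were taken from RefSeq (GRCm38.p6) and are shown 5′ to 3′ with the seed (bases 2 to 8) in capitals, and no pair of the 5 shares a seed.
mmu-miR-692 (Mir692-1): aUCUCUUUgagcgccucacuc
mmu-miR-1938 (Mir1938): cGGUGGGAcuuguaguucgguc
mmu-miR-5125 (Mir5125): uCUGCCUGggauuuccuugu
mmu-miR-142a-5p (Mir142): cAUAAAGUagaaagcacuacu
mmu-miR-142a-3p (Mir142): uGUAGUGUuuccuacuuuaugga

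Whether WT DCs and Control DCs differed was then tested on quantile-normalised log2 values with limma. Of 33649 probe sets, 0 (0%) had an adjusted p under 0.05 after Benjamini-Hochberg correction, and the lowest adjusted p was 0.165. Unadjusted p was under 0.05 for 1119 probe sets with higher signal in WT DCs (3.33%) and for 1222 with lower signal (3.63%). Because Control was a single array, the spread came from the 3 WT arrays alone and the Control array was taken to vary as they did. Control also lacked values on 7696 probe sets that the WT arrays had. It shared 54.2% of its values to the last digit with the array of LPS-treated mice. A difference between the groups of mice therefore cannot be told apart from one in how the arrays were processed. On the values as deposited, 14 probe sets had an adjusted p under 0.05, all higher in WT DCs. There, unadjusted p was under 0.05 for 304 probe sets higher and 49 lower in WT DCs, so that the balance of directions depends on the scaling. The labels do not say that the arrays came from separate animals, so the p-values measure only the spread between these arrays, which may be technical. In the fit on deposited values, limma gave every probe set the same variance. A probe set's own spread among the WT arrays therefore did not enter its p there.

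Gdpd3, a lysophospholipase D gene, had the lowest adjusted p. Its normalised log2 values were 8.79, 8.73 and 8.55 in WT DCs and 4.03 in Control DCs, with a difference of 4.65 ± 0.281 (SE) and an adjusted p of 0.165 in limma. On the values as deposited its adjusted p was 0.000918, so that Gdpd3 is among the 14. The WT arrays lay close together and all above Control, which a choice by the lowest p makes likely. Tuba1b differed by 3.47 ± 0.313 (adjusted p = 0.305, limma). A second probe set of Rgs2 differed by 3.36 ± 0.278 (adjusted p = 0.305, limma), with percentiles of 85.3, 85.5 and 84.0 in WT DCs and 40.0 in Control DCs, while the first, among the 30 highest genes, differed by few ranks. Of the 10 largest positive differences at an unadjusted p under 0.05, 6 were immunoglobulin kappa probe sets, which varied widely among the WT arrays. The probe set of Igkv5-43 with the largest difference had normalised log2 values of 7.03, 5.49 and 10.41 in WT DCs and 2.69 in Control DCs. Its difference of 4.96 carried an SE of 1.75. The probe set that stands for the gene was another, and ranked 44, 310 and 5 in WT DCs and 264 in Control DCs. On the values as deposited, the probe set with the largest difference, a further lower-signal probe set of Igkv5-43 and Igkv4-91 were among the 14. The other large positive difference was that of 1600010M07Rik, at 2.96 ± 0.368 (adjusted p = 0.717, limma).

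In the other direction, Ctse, an endosomal aspartic protease gene, had the largest difference. Its normalised log2 values were 5.06, 5.42 and 7.68 in WT DCs and 9.72 in Control DCs, with a difference of -3.67 ± 1.01 (adjusted p = 0.717, limma). Retnla, a cysteine-rich protein secreted by macrophages under type 2 signals, differed by -2.22 ± 0.728 and Cxcl13, which draws B cells into follicles, by -2.08 ± 0.395 (adjusted p = 0.717 for both, limma). All 3 WT arrays lay below Control for each of these 3 genes, which their choice by the size of the difference makes likely. Differences of the same size were found for genes of other kinds. The olfactory receptor gene Olfr1158, a member of the sensory receptor background, differed by -2.03 ± 0.35. The rest of the 10 largest were Snora41 (-2.28), H2-M10.1 (-2.22), Mir3098 (-2.21), Coch (-2.11), Myl10 (-2.08) and Pilrb2 (-1.96), each with an adjusted p of 0.717 in limma. For Stk11 the normalised log2 values were 6.17, 6.56 and 6.57 in WT DCs and 7.35 in Control DCs, a difference of -0.91 ± 0.31. Stk11 was named after its values were seen. With 1 Control array, a value outside the range of the WT arrays does not separate the groups.

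Read by list, no gene of any list passed the adjusted test after quantile normalisation. On the values as deposited, S100a8 of the neutrophil list and Igkv4-91 of the immunoglobulin list did, without their own spread entering the p. For Igkv5-43, only probe sets other than the one that stands for the gene in the list did. At an unadjusted p under 0.05 after quantile normalisation, 3.33% of all probe sets were higher in WT DCs and 3.63% lower. Of the histone genes, 7 of 31 were higher in WT DCs and 0 lower, with a median difference of 0.71 on the log2 scale. For macrophage and monocyte genes, 0 of 20 were higher and 4 lower (Mertk, Cd5l, Spic and Slc40a1), with a median difference of -0.41. Of the mature DC genes, 0 of 14 were higher and 2 lower, Ccl22 with a difference of -1.85 ± 0.431 and Il12b with one of -1.06 ± 0.375 (adjusted p = 0.717 for both, limma). Cell division genes had 3 of 19 higher and 0 lower. In the core DC list and the MHC class II list, 0 of 12 and 0 of 15 genes had an unadjusted p under 0.05. The label markers differed by -0.71 ± 0.439 for Itgax, -0.47 ± 0.452 for Flt3 and -0.41 ± 0.431 for Zbtb46.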

How the data were processed

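Total RNA of DCs sorted from spleen was extracted with Trizol, labelled with biotin and hybridised to Mouse Gene 2.0 ST arrays by the authors. The deposited values are on a log2 scale, 1 per probe set and array. The authors' methods name GeneSpring and the submitters' processing notes name MAS5 without a version, and how the arrays were normalised is not given in the sources used here. Of 41345 probe sets, 7696 had no value on Control, 1820 had several gene symbols and 16004 had none. Symbols came from the platform annotation, and 23328 of the 23521 ranked probe sets were matched to RefSeq by gene number.

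Ranks, percentiles, list medians and counts were computed per array with Python 3.11.15 and pandas 2.3.3. The percentile is that of the average rank among the 23521 probe sets. WT was set against Control with limma 3.58.1 in R 4.3.3 on quantile-normalised log2 values of all 33649 probe sets with Benjamini-Hochberg adjustment, and every SE given is that of limma. Ribosomal protein, small nucleolar RNA, microRNA, histone and immunoglobulin genes were taken by symbol, without kinases, binding proteins and other genes that only share the prefix. The procedures were checked on simulated data. With 3 WT arrays and 1 Control array, precision is low.

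The members and the 25 hand-written lists were chosen with earlier results of these data known. Genes named were drawn from the 30 genes with the highest mean rank, the label markers, members of each list (the highest, the lowest, the most spread and defining markers), the sex-linked genes, the 12 widest spans, and the 10 largest differences in each direction at an unadjusted p under 0.05. The rule for probe sets that stand apart on 1 array, and Stk11, Vmn1r233, Lcn2, Chil3, Prg2, Syne1 and the Snord, Rny, histone and microRNA genes named, were chosen after their values were seen.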

Additional observations from a re-analysis of the deposited data

Results flagged for a closer look

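Signal was present in probe sets that the ranking left out. The probe set shared by Cd74 and Mir5107 had a mean log2 value of 12.33 over the 4 arrays, with 12.28, 12.80 and 11.58 in WT DCs and 12.67 in Control DCs, above the sensory receptor level on each. Among all 33649 probe sets it ranked 10, 13 and 16 in WT DCs and 9 in Control DCs, and its signal cannot be divided between the 2 genes. Of the 1820 probe sets with several symbols, 850 were above that level on all 4 arrays. Of the 8308 probe sets with no symbol and a value on all 4 arrays, 1881 were above it.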

How the results depend on the processing

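No paired analysis was possible because Control had 1 array, so that the groups share fewer than 2 replicate numbers. On the values as deposited, limma gave 14 probe sets with an adjusted p under 0.05, against 0 after quantile normalisation. At an unadjusted p under 0.05 there were 2341 probe sets after quantile normalisation, 353 as deposited, 1539 after centring on the median and 1392 among probe sets above the sensory receptor level on at least 1 array. The share of these that were higher in WT DCs was 47.8% after quantile normalisation, 86.1% as deposited, 86.2% after centring and 35.8% with 16 added before the log. Leaving out each WT array gave between 1782 and 2908. No named difference changed its sign. With the 99th percentile of the sensory receptors as the level, 7645 probe sets in place of 11491 were above it on all 4 arrays, and leaving out an array gave 11644 to 12286. The count of spans of at least 20 points was 2640, 4611 when ranked among all probe sets, and 611 for at least 30 points. Leaving out an array gave 1443 to 1873, with 1443 without Control and 1734 without WT 3, where fewer arrays also narrow a span. Without WT 1, the NK cell median was 83.0 and that of plasmacytoid DCs 81.4. Of 124 list medians that left out an array, 5 moved by over 1 SD. The mean over a gene's probe sets lowered the ribosomal protein median to 73.3, against 94.8, and the cytoskeleton median to 96.3. Signal near the sensory receptor level cannot be told from background.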

Other observations

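The features that set single WT arrays apart were also read on the Cd11cCreLkb1f/f array of the same number. Xist stood at the percentiles 16.8, 98.96 and 11.2 on Cd11cCreLkb1f/f arrays 1, 2 and 3, against 20.7, 99.1 and 12.5 on WT 1, WT 2 and WT 3. The median of the neutrophil list was 59.97, 46.4 and 94.0 on the Cd11cCreLkb1f/f arrays, against 57.6, 43.4 and 94.2 on the WT arrays. That of the small nucleolar RNAs was 78.6, 87.9 and 91.5 on the Cd11cCreLkb1f/f arrays, against 81.0, 90.7 and 92.0 on the WT arrays. Arrays of the same number also shared values to the last digit, at 5.58% of probe sets for number 1, 2.95% for number 2 and 8.28% for number 3, and Control shared 54.2% with the array of LPS-treated mice. Among the 4 steady-state arrays no value was shared over the 23521 ranked probe sets. The shares above are instead of all probe sets with a value on both arrays.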
